A study of Mus musculus with 12 samples.

Results

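*Dusp4* was silenced in AKT/NRAS cells, and the RNA of 3 cultures treated with *Dusp4* siRNA was compared with that of 3 treated with a scrambled control siRNA, named SCR. The AKT/NRAS line was established from a mouse hepatocellular carcinoma (HCC) raised by hydrodynamic tail vein injection of myristoylated AKT, which is flanked by loxP sites, together with *NRAS* G12V, so both arms of the comparison carry both oncogenes. Cells were grown in DMEM, transfected with a pool of siRNAs or its negative control, given a repeat transfection at 48 h and collected a further 24 h on. Its derivative AKT Cre/NRAS, from which Cre recombinase had removed AKT, received the same treatments in a further 3 and 3 cultures and serves here for 1 comparison only. Gene expression was read by NanoString® nCounter with the Mouse PanCancer Pathways panel, in which barcoded probes are counted on RNA without amplification. All gene probes whose deposited value exceeded the floor of 20 in at least 1 of the 6 AKT/NRAS samples were taken, which gave 507 of the 770 gene probes, and the other 263 stood at the floor in all 6. Of the 507 genes, 496 also exceeded a common floor of 27.1 normalized counts and were tested, and 11 (*Col4a3*, *Creb3l4*, *Csf2*, *Elk1*, *Hpgd*, *Mutyh*, *Pik3cd*, *Rps27a*, *Wif1*, *Wnt11* and *Zbtb32*) were not.

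DUSP4 is a nuclear dual specificity phosphatase that removes the activating phosphates from mitogen-activated protein kinases (MAPK), chiefly ERK and JNK. Its gene is itself switched on by ERK signalling, so that it forms part of a negative feedback with *Dusp6*, *Dusp5* and the Sprouty genes. RAS-driven liver tumours signal through RAF, MEK and ERK to immediate early transcription factors such as FOS and JUN, and from there to the cell cycle. The panel measures RNA, not phosphorylation, and a lower value per sample cannot tell fewer cells with a transcript from less transcript per cell.

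The barcode counts recovered from the deposited values summed to between 641790 and 868961 per sample, with 274 to 293 genes at the floor. Markers of other cell types were largely at the floor in all 6 samples, namely 5 of 6 lymphocyte, 3 of 4 myeloid, 4 of 6 fibroblast and 1 of 2 endothelial genes (*Kdr*). The other endothelial gene, *Flt1*, was measured, and the 2 summed to 960 to 1034 normalized counts with siRNA and 1287 to 1430 with SCR. The myeloid genes, of which *Cd14* was measured, summed to 1514 to 1614 with siRNA and 1404 to 1587 with SCR. The source of these transcripts was not tested. Of 11 hepatocyte and liver progenitor genes, 10 were measured, among them *Cebpa*, *Hhex*, *Met* and *Cdh1*, while *Prom1*, which encodes CD133, was at the floor in every sample. *Akt1*, which sets the lines apart, stood at 18257, 18566 and 18169.9 normalized counts with *Dusp4* siRNA and at 20228, 20006 and 19259 with SCR. In AKT Cre/NRAS it was at 547, 587 and 531 with siRNA and at 395, 432 and 337 with SCR. The replicates lay close to one another. Replicates 2 and 3 differed by 1.29 (siRNA) and 1.18 (SCR) times the variance of counting noise (chi-square per degree of freedom). Replicate 1 of each group stood further off, at 2.34 to 4.21 times that variance.

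The targeted gene fell in every treated sample. *Dusp4* was counted at 350.2, 389 and 371 normalized counts with *Dusp4* siRNA and at 1273, 1226 and 1186 with SCR. The groups were far apart, and the means of 370.1 ± 19.7 and 1228 ± 43.8 (SD, n = 3 each) left 30.2% of the SCR level. The log2 fold change of *Dusp4* was -1.73 (standard error 0.052, limma adjusted p = 1.13e-06), the largest of all 496 genes in either direction, and it passed the test under each of the settings tried.

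The wider response was small in size, with more falls than rises, a balance that turned around with the values as deposited, after centring on the median gene and after quantile normalization. At an adjusted p of 0.05, 27 genes rose, which is 5.44% of the 496 tested, and 59 fell, which is 11.9%. The median size of a called change was 0.28 on the log2 scale, and *Dusp4* and 9 other genes passed 0.5, of which 2 rose, among them *Cxcl5*, and 7 fell (*Figf*, *Cacna1g*, *Wnt7b*, *Col5a2*, *Efna3*, *Ccna2* and *Dusp5*). The siRNA and SCR samples did not overlap in 172 genes (34.7%), 57 of them higher and 115 lower with siRNA, and these included all 86 called genes. For 1 gene alone, an exact two-sided permutation test of 3 samples against 3 cannot go below p = 0.1, so the calls rest on the spread that limma pools across genes.

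These counts depended on the scaling. The 3 siRNA samples carried more signal in the reference genes (geometric mean 1017 to 1131) than the 3 SCR samples (791 to 916), and without reference gene scaling, that is with the values as deposited, the median gene stood 0.30 higher with siRNA, 287 genes rose (56.6%) and 3 fell (0.592%). All changes below are therefore relative to the reference genes. The 15 reference genes used for scaling themselves ranged from -0.18 to 0.17 on the log2 scale between siRNA and SCR. Several calls below are no larger than that. Counts of list members below are read against the shares of all tested genes, 5.44% up and 11.9% down. As deposited these shares are 56.6% and 0.592%. All 27 rises also passed with the values as deposited, whereas of the 59 falls 3 passed (*Dusp4*, *Figf* and *Cacna1g*), 25 in all kept a value below 0 and 34 turned above 0. When each sample was instead centred on its median gene, 55 genes rose (11.1%) and 44 fell (8.87%), after quantile normalization 47 rose and 42 fell, and under the centring 27 of the 27 rises and 43 of the 59 falls passed again.

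Single libraries weighed on the calls as well. Without siRNA replicate 3, 6 genes rose and 33 fell. Without SCR replicate 1 the counts were 13 and 36, without SCR replicate 2 they were 12 and 32, without SCR replicate 3 they were 15 and 52, and without siRNA replicate 2 they were 17 and 48. Of the 86 genes, 32 passed whichever sample was left out, 5 that rose (*Jag1*, *Cxcl5*, *Mcm7*, *Cdkn2c* and *Eef1g*, a reference gene that was not kept) and 27 that fell. Among calls described below, *Cdkn1b*, *Il15*, *Gnas* and *Gna11* held in 1 of the 6 fits and *Efna2*, *Fen1*, *Gadd45a* and *Prkca* in 2. *Cic*, *Fgfr4*, *Mcm4*, *Mycn*, *Ptk2* and *Trp53* held in 3. With the stricter Benjamini-Yekutieli adjustment, which the study used, 10 genes remained: *Jag1*, which rose, and *Dusp4*, *Ccna2*, *Cdkn1a*, *Dusp10*, *Ets2*, *Flt1*, *Rasa4*, *Numbl* and *Cacna1g*, which fell.

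**Figure D1:**
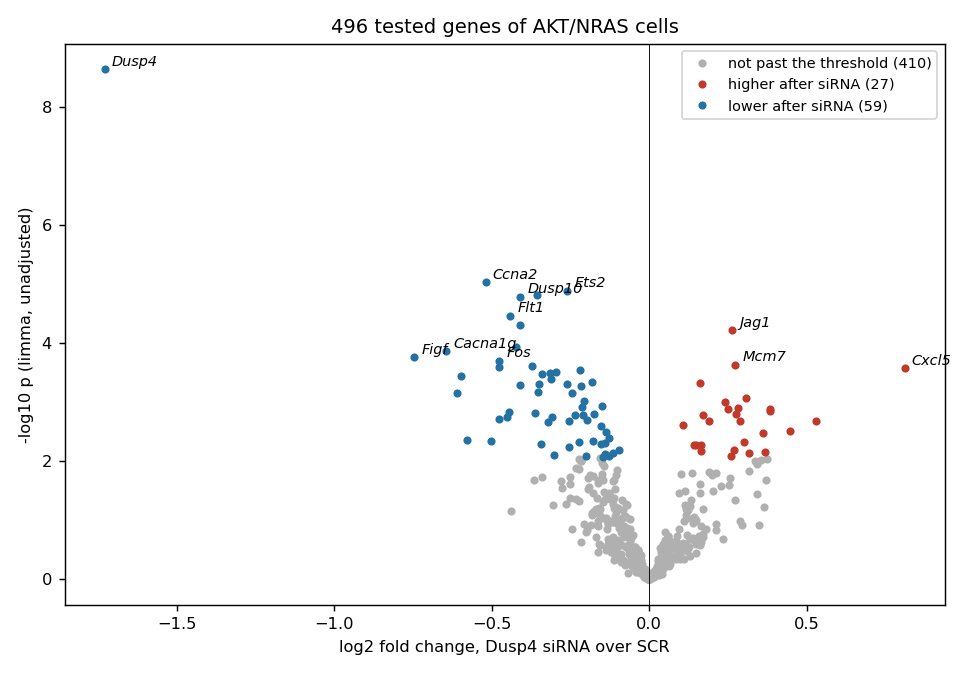
Log2 fold change of *Dusp4* siRNA over SCR (x axis) against the negative log10 of the unadjusted limma p (y axis) for the 496 tested genes of AKT/NRAS cells. Red points are the 27 genes that rose, blue points the 59 that fell and grey points the 410 that did not pass. *Dusp4* stands apart at -1.73. With the values as deposited all points shift to the right by about 0.3.

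Of the same feedback system no gene rose, except *Spry1* with the values as deposited. Of 8 tested DUSP and Sprouty genes, *Dusp4* included, 3 fell, with a list median of -0.10 against -0.03 over all tested genes. *Dusp10*, a phosphatase of JNK and p38, was counted at 1404, 1368 and 1278 normalized counts with siRNA and at 1832, 1767 and 1775 with SCR. The groups did not overlap, and *Dusp10* fell by 0.41 on the log2 scale (adjusted p = 0.00161), with -0.074 as deposited. *Dusp5*, an inducible nuclear phosphatase of ERK, stood at 80.3, 64.4 and 66.9 normalized counts with siRNA and at 111, 85.8 and 104 with SCR. Its highest treated sample lay just under its lowest SCR sample, and it fell by 0.50 (adjusted p = 0.0345), a call that held in 2 of the 6 fits with 1 sample left out. *Dusp6*, the cytoplasmic phosphatase of ERK, was close to level, at 1740.3, 1577 and 1561 normalized counts with siRNA and 1712, 1766 and 1682 with SCR. The groups overlapped, and its log2 fold change of -0.082 (standard error 0.048) did not pass (adjusted p = 0.291). *Dusp8*, *Spry2* and *Spry4*, the last of these among the usual readouts of ERK activity, had log2 fold changes of -0.039, -0.11 and -0.091, with overlapping groups. *Spry1* was the only member above 0, at 0.27 (adjusted p = 0.151), where siRNA replicate 1 with 111.7 normalized counts lay well above replicates 2 and 3 at 82.2 and 91.8. With the values as deposited, *Dusp4* alone of these 8 fell and *Spry1* alone rose (log2 fold change 0.60, adjusted p = 0.000235), while *Dusp6* at 0.25 did not pass (adjusted p = 0.052).

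**Figure D2:**
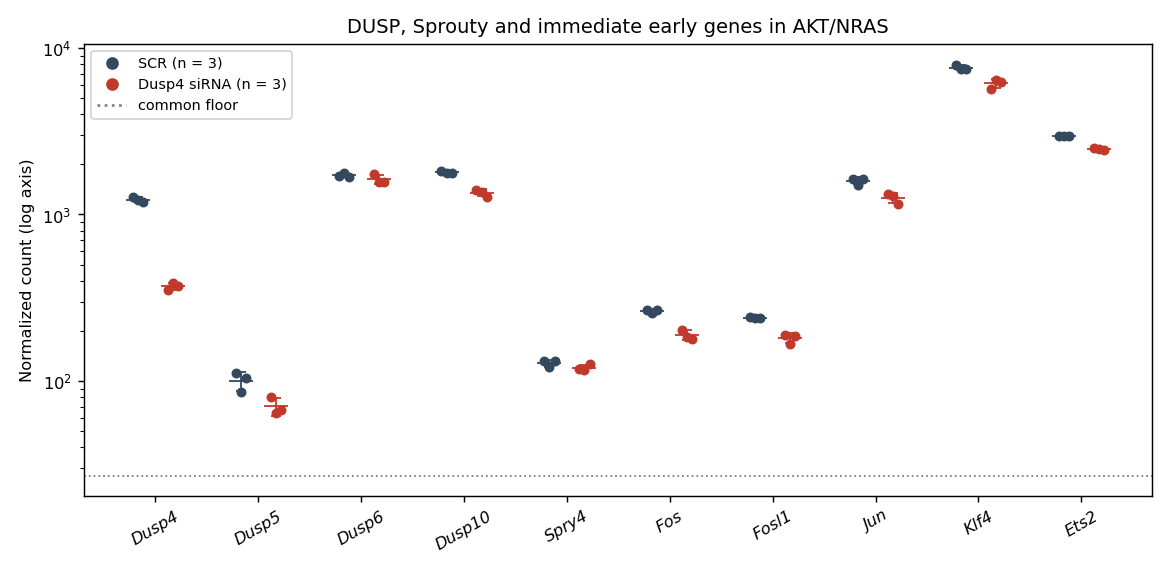
Normalized counts (log axis) of DUSP, Sprouty and immediate early genes in the 3 SCR samples (dark) and the 3 *Dusp4* siRNA samples (red) of AKT/NRAS cells. Points are samples, and dashes with bars are means with SD. The groups are apart for every gene drawn except *Dusp6* and *Spry4*, and the dotted line is the common floor of 27.1.

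Most of the immediate early and ERK-induced transcription factors fell. Of 7 tested genes, 5 fell and none rose, and the list median of -0.31 was the lowest of the 22 pathway lists, although none of the 7 passed with the values as deposited. *Fos*, a partner of JUN in the AP-1 factor, was counted at 204, 184 and 179 normalized counts with siRNA and at 267, 255 and 267 with SCR. *Fos* thus stood at 71.9% of the SCR level, with a log2 fold change of -0.48 (standard error 0.071, adjusted p = 0.00816). *Fosl1*, another member of the FOS family that accumulates under sustained ERK signalling, stood at 189.6, 167 and 186 with siRNA and at 242, 240.0 and 239 with SCR. Its treated samples lay below all controls, at 75.3% of their mean (adjusted p = 0.00916). *Jun* was counted at 1327, 1284 and 1155 with siRNA and at 1641, 1512 and 1643 with SCR, a log2 fold change of -0.35 (adjusted p = 0.00916). *Ets2*, a transcription factor phosphorylated by ERK, had the tightest groups, with 2501, 2473 and 2446 normalized counts against 2967, 2943 and 2977. *Ets2* fell by 0.26 (standard error 0.026, adjusted p = 0.00161), and *Klf4*, a factor of epithelial differentiation, fell by 0.31 (adjusted p = 0.00906), while as deposited both stood slightly above 0, at 0.075 and 0.023. After quantile normalization *Ets2* did not pass (adjusted p = 0.105). *Creb5*, a CREB family factor outside the list, went from 228, 208 and 229 normalized counts with SCR to 168, 156 and 153 with siRNA (log2 fold change -0.48, adjusted p = 0.00816). All of *Fos*, *Fosl1*, *Jun*, *Ets2*, *Klf4* and *Creb5* passed whichever sample was left out. In 1 fit over all 4 groups *Creb5* passed (limma adjusted p = 0.00955) and the others did not (0.052 to 0.154). With Benjamini-Yekutieli adjustment *Ets2* alone of them passed. By Western blot, the paper reports that phosphorylated ERK increased after DUSP4 was silenced, in AKT/NRAS and especially in AKT Cre/NRAS. The falls in RNA are therefore not a measure of ERK activity, and their relation to it was not tested.

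For *Fos* and *Dusp5*, a FOS gene and a DUSP gene that fell, the letters before the start sites are shown, from the RefSeq promoter sequences on GRCm38.p6. Of the 496 tested genes 367 have an entry there, and the 250 bases before the start site were searched on both strands. The core of the cyclic AMP response element, TGACGT, is set in capitals, as it reads on the gene's strand or in reverse.
*Fos* (chr12:85473777-85473876, plus strand, bases 113 to 14 before the start site): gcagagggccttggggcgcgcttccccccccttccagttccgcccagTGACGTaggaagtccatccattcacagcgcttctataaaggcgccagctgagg
*Dusp5* (chr19:53529042-53529141, plus strand, bases 103 to 4 before the start site): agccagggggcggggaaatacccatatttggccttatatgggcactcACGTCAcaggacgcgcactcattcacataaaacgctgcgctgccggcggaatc
The core occurred before 6 of the 40 genes with an entry that fell (*Cic*, *Creb5*, *Dusp5*, *Flt1*, *Fos* and *Vegfa*, 15%), 2 of the 19 that rose, 13.4% of the tested genes and 7.29% of all genes in the table. The AP-1 word TGACTCA occurred before 3 of the 40 (*Capn2*, *Creb5* and *Ddit3*, 7.5%), none of the 19, 4.63% of the tested genes and 5.16% of all. These shares describe letters only, and the words were chosen after the fold changes had been seen.

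Genes from RAS to ERK fell about as often as all tested genes. Of 17 tested, 2 fell, against 11.9% of all tested genes, and none rose, against 5.44%. With the values as deposited 7 rose, against 56.6% of all tested genes. *Rasa4*, which encodes a GTPase activating protein that turns RAS off, was the clearest, at 389.7, 382 and 389.6 normalized counts with siRNA and 534, 517 and 493 with SCR. It fell by 0.41 (standard error 0.049, adjusted p = 0.00345) and was at -0.075 as deposited. *Hras* and the adaptor *Shc2* did not pass, at -0.15 and -0.16.

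Of 11 tested kinases and scaffolds of the JNK and p38 cascades, 1 fell, against 11.9% of all tested genes, and none rose. With the values as deposited 7 rose. *Map3k1*, an activator of the JNK cascade, was counted at 1242, 1364 and 1164 normalized counts with siRNA and at 1647, 1592 and 1625 with SCR. The groups were well apart and *Map3k1* fell by 0.37 (adjusted p = 0.00816). Other kinases of these cascades did not pass: *Map2k6*, which activates p38, at -0.14, *Map3k5*, a stress-activated kinase, at 0.013 and *Mapk9*, which encodes JNK2, at -0.042. The scaffold *Mapk8ip1* (-0.16) and *Map3k13* (0.16), with samples at the floor, did not pass either. *Prkca*, a protein kinase C that feeds into RAF, stood at 1659, 1510.2 and 1569 with siRNA and 2072, 1845 and 1744 with SCR and fell by 0.25 (adjusted p = 0.0382), against 0.081 as deposited.

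In the PI3K, AKT and mTOR list, 4 of 16 tested genes fell, against 11.9% of all tested genes, and none rose. The list median was -0.10, and as deposited none fell and 7 rose. *Pik3r1*, the regulatory subunit of PI3K, went from 1009, 1004 and 969 normalized counts with SCR to 795, 858 and 777 with siRNA (log2 fold change -0.30, adjusted p = 0.00816). *Eif4ebp1*, a repressor of translation that mTOR inactivates, fell by 0.24 (adjusted p = 0.0176). *Akt1* fell by 0.11 (adjusted p = 0.0444), a call that held in 1 of 6 fits with a sample left out. All 4 turned above 0 as deposited, where *Akt1* was at 0.22.

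Several genes of DNA replication rose. Of 11 tested genes 4 rose and none fell, with a median of 0.11, the highest of the lists, and as deposited 9 rose. *Mcm7*, a subunit of the replicative helicase, was counted at 1014, 1065 and 1055 normalized counts with siRNA and at 876, 889 and 828 with SCR. The groups did not overlap, and *Mcm7* rose to 121% of the SCR level (log2 fold change 0.27, standard error 0.042, adjusted p = 0.00816), whichever sample was left out. *Mcm4*, of the same helicase, stood at 499, 466 and 514 against 390.2, 412 and 420.0 (adjusted p = 0.0176). *Rfc3*, of the clamp loader, rose by 0.32 and *Rpa3*, of the single-strand binding complex, by 0.11 (adjusted p = 0.0444 and 0.0213), both in 2 of 6 fits with a sample left out.

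Of the genes that act in the repair of replicating DNA, *Fen1* and *Ube2t* also rose. *Fen1*, the flap endonuclease that trims Okazaki fragments, stood at 164, 175 and 166 normalized counts with siRNA against 133, 118 and 142 with SCR and rose by 0.36 (adjusted p = 0.0267). *Ube2t*, the ubiquitin conjugating enzyme of the Fanconi pathway, rose by 0.27 (adjusted p = 0.0417), a call lost whenever a sample was left out. In the list of DNA damage signalling and repair, which does not hold *Fen1*, 2 of 35 tested genes rose and none fell (median 0.05). The rises were near the share of all tested genes that rose, 5.44%. As deposited 30 of the 35 rose, against 56.6% of all tested genes. *Fancg* and *Fancb*, which encode subunits of the Fanconi core complex, were at 0.32 and 0.37 and did not pass (adjusted p = 0.0725 and 0.0511).

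Cyclins moved in both directions. *Ccna2*, the cyclin of S phase and G2, had the smallest p after *Dusp4*, at 478, 452 and 453 normalized counts with siRNA and 633, 683 and 668 with SCR. *Ccna2* fell to 69.8% of the SCR level (log2 fold change -0.52, standard error 0.049, adjusted p = 0.00161), and was at -0.18 as deposited. *Ccnd2*, a D-type cyclin that drives G1, was at 16263, 16387 and 15882 against 14641, 14739 and 13748 and rose by 0.17 (adjusted p = 0.0176), under all 8 scalings. *Ccnd1* (-0.099), *Cdk6* (-0.028) and *E2f1* (0.21) did not pass, and of the 12 tested cyclins and kinases of G1 and S phase 1 rose and 1 fell, against 8 rises as deposited. *Skp2*, the F-box protein that marks p27 for degradation, rose by 0.38 (adjusted p = 0.0174), with 64.0, 61.6 and 62.6 normalized counts against 52.2, 45.2 and 46.4. *Mycn*, a growth-promoting factor of the MYC family, rose by 0.29 (adjusted p = 0.019). *Ttk*, a kinase of the spindle checkpoint, rose by 0.26 (adjusted p = 0.048), a call lost whenever a sample was left out, and *Wee1* (-0.23), *Stag2* (-0.11) and *Stmn1* (0.06) did not pass. It was 1 rise among 10 tested genes of G2 and mitosis, with none that fell.

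The inhibitors of the cell cycle divided likewise, with 2 rises and 2 falls among 10 tested genes, against 5.44% and 11.9% of all tested genes. As deposited 5 of the 10 rose and none fell. *Cdkn1a*, which encodes the p53 target p21, was counted at 4466, 4748 and 4498 normalized counts with siRNA and at 6003, 5885 and 5661 with SCR. The groups were wide apart, and *Cdkn1a* fell to 78.1% of the SCR level (adjusted p = 0.00161), with -0.021 as deposited. *Trp53*, which encodes p53, rose to 114% (adjusted p = 0.019), with 748, 734 and 787 against 663, 655 and 669. *Cdkn2c*, which encodes p18, an inhibitor of CDK4 and CDK6, rose by 0.31 (adjusted p = 0.013) and *Cdkn1b*, which encodes p27, fell by 0.14 (adjusted p = 0.0354), turning to 0.20 as deposited. *Cdkn2a*, the senescence-associated locus of p16 and p19ARF, did not pass, at 1591, 1956 and 1869 with siRNA against 1835, 1833 and 1776.

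**Figure D3:**
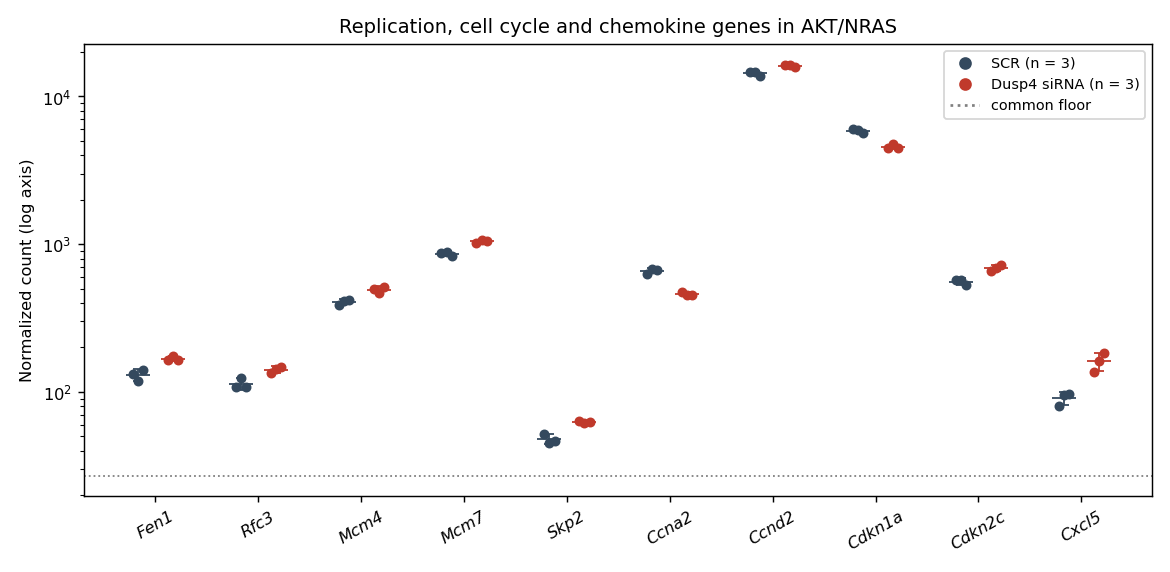
Normalized counts (log axis) of replication, cell cycle and chemokine genes in the 3 SCR samples (dark) and the 3 *Dusp4* siRNA samples (red) of AKT/NRAS cells. Points are samples, dashes with bars are means with SD, and the dotted line is the common floor of 27.1. *Ccna2* and *Cdkn1a* are lower with siRNA and the other genes drawn are higher, also with the values as deposited.

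E2F words occurred before several of the genes that rose. The words TTTGGCGC, TTTCCCGC, TTTCGCGC and TTTGCCGC were searched in the same 250 bases, and are set in capitals in the stretches before *Rfc3* and *Mycn*, where the matches before *Mycn* on opposite strands overlap.
*Rfc3* (chr5:151651209-151651308, minus strand, bases 100 to 1 before the start site): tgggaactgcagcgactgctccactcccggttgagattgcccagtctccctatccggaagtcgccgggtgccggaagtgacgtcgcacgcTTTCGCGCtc
*Mycn* (chr12:12941966-12942065, minus strand, bases 229 to 130 before the start site): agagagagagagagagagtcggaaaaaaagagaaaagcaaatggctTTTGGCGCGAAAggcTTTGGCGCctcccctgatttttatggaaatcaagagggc
A word was present before 5 of the 19 genes with an entry that rose (*Mcm7*, *Mycn*, *Rbx1*, *Rfc3* and *Tfdp1*, 26.3%), 1 of the 40 that fell (*Pdgfa*, 2.5%), 7.63% of the tested genes and 2.16% of all genes in the table. These words, too, were chosen with the fold changes known, and the shares carry no test.

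Of 7 tested stress genes 2 fell, against 11.9% of all tested genes, and none rose. The list median was -0.15, and none of the 7 fell as deposited. *Ddit3*, which encodes the endoplasmic reticulum stress factor CHOP, was counted at 768, 954 and 1021 normalized counts with siRNA and at 1344, 1248 and 1199.6 with SCR. Replicate 1 of the treated samples was the lowest, and *Ddit3* fell by 0.48 (standard error 0.10, adjusted p = 0.0188), with -0.14 as deposited. *Gadd45a*, a stress-induced growth arrest gene, fell by 0.22 (adjusted p = 0.0348) and turned to 0.11 as deposited. *Hspb1*, a small heat shock protein, and *Gadd45b* did not pass, at -0.15 and -0.16.

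Apoptosis genes changed in 1 case. *Bnip3*, a hypoxia-induced mitochondrial protein, was counted at 12193, 12341 and 11898 with siRNA and at 16729, 15139 and 14354 with SCR, and fell by 0.34 (adjusted p = 0.00816), against -0.0054 as deposited. It was the only call among 12 tested pro-apoptotic and 3 tested anti-apoptotic genes, of which 9 and 3 rose as deposited. *Bid*, a BH3 protein of the death receptor pathway, stood at 0.19 (adjusted p = 0.0727), and it passed as a rise with all 20 reference genes (adjusted p = 0.032), with reference genes chosen within the line (0.0174), after quantile normalization (0.0347) and after centring on the median gene (0.00431). *Bax* and *Bcl2l1* also passed, as rises, after that centring. *Bax* (0.12), *Casp12* (0.061), *Endog* (-0.18), *Birc3* (0.12), *Bcl2l1* (0.096) and *Bcl2* (0.021) did not pass with the kept reference genes.

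Among secreted factors the chemokine *Cxcl5*, a neutrophil attractant, showed the largest rise of all genes. It was counted at 137, 162 and 184 normalized counts with siRNA and at 80.2, 95.1 and 97.5 with SCR. All treated samples lay above all controls, and *Cxcl5* rose to 175% of the SCR level (log2 fold change 0.81, standard error 0.13, adjusted p = 0.00816). Its relative *Cxcl1* stood at 105, 148 and 123 against 96.6, 101 and 89.3, also without overlap, but did not pass (log2 fold change 0.37, adjusted p = 0.0858). *Tlr4*, the receptor of bacterial lipopolysaccharide, fell by 0.21 and *Il15*, a cytokine for lymphocytes, by 0.30 (adjusted p = 0.0142 and 0.0467), and both stood above 0 as deposited. They made 1 rise and 2 falls among 9 tested cytokine and receptor genes. None of 12 tested genes of the NF-kappaB pathway passed in limma, with *Rela* at -0.075, *Nfkb1* at -0.12, *Traf7* at -0.087 and *Nfkbia* at -0.08, and 9 of them rose as deposited. None of 12 tested JAK, STAT and SOCS genes passed either, with *Socs2* at -0.28, *Socs3* at -0.16, *Jak3* at -0.13 and *Jak2* at -0.11, against 5 rises as deposited.

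Growth factors and their receptors held 7 calls among 25 tested genes, 2 up and 5 down, against 5.44% and 11.9% of all tested genes. As deposited 13 of the 25 rose and none fell. *Vegfa*, the main angiogenic factor, was counted at 2780.3, 2744 and 2739 with siRNA and at 3319, 3076 and 3221 with SCR, and fell by 0.22 (adjusted p = 0.00816). *Figf*, which encodes VEGF-D and stands outside the list, had the largest fall after *Dusp4*, from 411, 336 and 307 normalized counts with SCR to 200.1, 204 and 219.7 with siRNA. *Figf* stood at 59.6% of the SCR level (log2 fold change -0.75, standard error 0.11, adjusted p = 0.00775) and at -0.41 as deposited, and its SCR samples spread more widely than its treated ones. *Flt1*, a receptor of VEGF-A that also marks endothelium and is likewise outside the list, went from 1403, 1304 and 1259.9 to 982, 1007 and 933 (log2 fold change -0.44, adjusted p = 0.00285), while *Kdr*, the other endothelial gene of the panel, was at the floor throughout. The ephrin ligands *Efna1*, *Efna2* and *Efna3* fell by 0.26, 0.45 and 0.58 (adjusted p = 0.00916, 0.0182 and 0.0339), *Efna2* and *Efna3* at levels of 29 to 61 normalized counts, near the floor. *Pdgfa*, a platelet-derived growth factor, fell by 0.24 (adjusted p = 0.0111), and *Vegfa*, *Efna1* and *Pdgfa* turned above 0 as deposited. *Fgfr4*, the hepatocyte receptor of FGF19-type hormones, rose by 0.38 (adjusted p = 0.0168), at 52.3, 51.4 and 52.3 against 36.7, 39.4 and 42.9.

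In the TGF-beta and BMP list 5 of 18 tested genes fell and 1 rose, against 11.9% and 5.44% of all tested genes. *Bmp2*, a bone morphogenetic protein, was counted at 589.8, 529.6 and 509.7 normalized counts with siRNA and at 645, 698 and 749 with SCR and fell by 0.36 (adjusted p = 0.0176). The signal transducers *Smad4* and *Smad3* fell by 0.21 and 0.17, and the receptor *Tgfbr1* by 0.15 (adjusted p = 0.0165, 0.0176 and 0.0162). As deposited these 3 turned to 0.12, 0.16 and 0.19, and 9 of the 18 rose.

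Among 11 tested Notch genes 1 rose and 2 fell, against 5.44% and 11.9% of all tested genes. As deposited 5 rose and none fell. *Jag1*, a Notch ligand, had the smallest p of the genes that rose, at 1640.2, 1621 and 1587 normalized counts with siRNA and 1314, 1379 and 1347 with SCR. *Jag1* rose to 120.0% of the SCR level (log2 fold change 0.26, standard error 0.033, adjusted p = 0.00372). *Numbl*, a relative of the Notch inhibitor NUMB, fell by 0.42, with 288, 292 and 266 against 376, 384 and 376 (adjusted p = 0.00641), and was at -0.089 as deposited. *Dtx4*, of the Deltex ubiquitin ligases, fell by 0.21 (adjusted p = 0.0176) and turned to 0.13 as deposited, and *Lfng*, a glycosyltransferase that modifies Notch, did not pass (-0.22).

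In the Wnt and Hedgehog list 1 of 17 tested genes fell and none rose, while 8 rose as deposited. *Wnt7b*, a Wnt ligand, was counted at 37.2, 35.5 and 28.3 normalized counts with siRNA and at 54.1, 52.2 and 48.7 with SCR, and fell by 0.61 (adjusted p = 0.0111) at a level near the floor. *Wnt16* (-0.19), *Dvl2* (-0.17) and the Hedgehog receptor *Ptch1* (-0.17) did not pass.

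Matrix and adhesion genes held 1 rise and 1 fall among 19 tested, against 10 rises and no fall as deposited. *Col5a2*, a chain of a fibrillar collagen, was counted at 197, 235 and 236 normalized counts with siRNA and at 309, 335 and 368 with SCR. It fell to 66.0% of the SCR level (log2 fold change -0.60, adjusted p = 0.00856). Of the fibroblast markers, *Pdgfra* and *Col1a1* were above the common floor, and their summed level ranged over 169 to 192 with siRNA and 188 to 213 with SCR, including the 4 genes at the floor. The part of these cells in the *Col5a2* value was not tested. *Spp1*, which encodes osteopontin, a liver progenitor and tumour marker, stood at 16928, 19518 and 19348 against 15345, 15529 and 14872 and rose by 0.28 (adjusted p = 0.0167). The integrin *Itga3* (0.096) and the laminin *Lamb3* (-0.19) did not pass.

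Of 37 tested chromatin regulators 5 fell and 1 rose, against 11.9% and 5.44% of all tested genes, so that the falls were near the share of all genes, and as deposited none fell and 24 rose, and after centring on the median gene 1 fell and 2 rose. The ATPase *Smarca4* of the SWI/SNF remodelling complex was counted at 2277, 2349.8 and 2253 normalized counts with siRNA and at 2608, 2653 and 2548 with SCR, a log2 fold change of -0.18 (adjusted p = 0.00916). The deacetylase *Hdac5*, the acetyltransferase *Ep300* and the methyltransferase *Ezh2* fell by 0.15, 0.14 and 0.13 (adjusted p = 0.0218, 0.0267 and 0.0326), each in 1 or 2 of 6 fits with a sample left out. The methyltransferase *Whsc1*, outside the list, fell by 0.15 (adjusted p = 0.0354), a call lost whenever a sample was left out. As deposited *Smarca4*, *Hdac5*, *Ep300*, *Ezh2* and *Whsc1* stood between 0.15 and 0.21.

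Further large changes lay outside the pathway lists. *Cacna1g*, a T-type calcium channel, was counted at 58.2, 57.0 and 53.2 normalized counts with siRNA and at 98.5, 84.6 and 82.4 with SCR, and fell by 0.64 (adjusted p = 0.00682) under all 8 scalings. The transcription factors *Gata3* and *Runx1* fell by 0.44 and 0.35 (adjusted p = 0.0176 and 0.0111). *Tiam1*, an exchange factor of the GTPase RAC, rose by 0.45 and *Pbx3*, a homeobox factor, by 0.37 (adjusted p = 0.0259 and 0.0444), each in 1 of 6 fits with a sample left out.

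**Figure D4:**
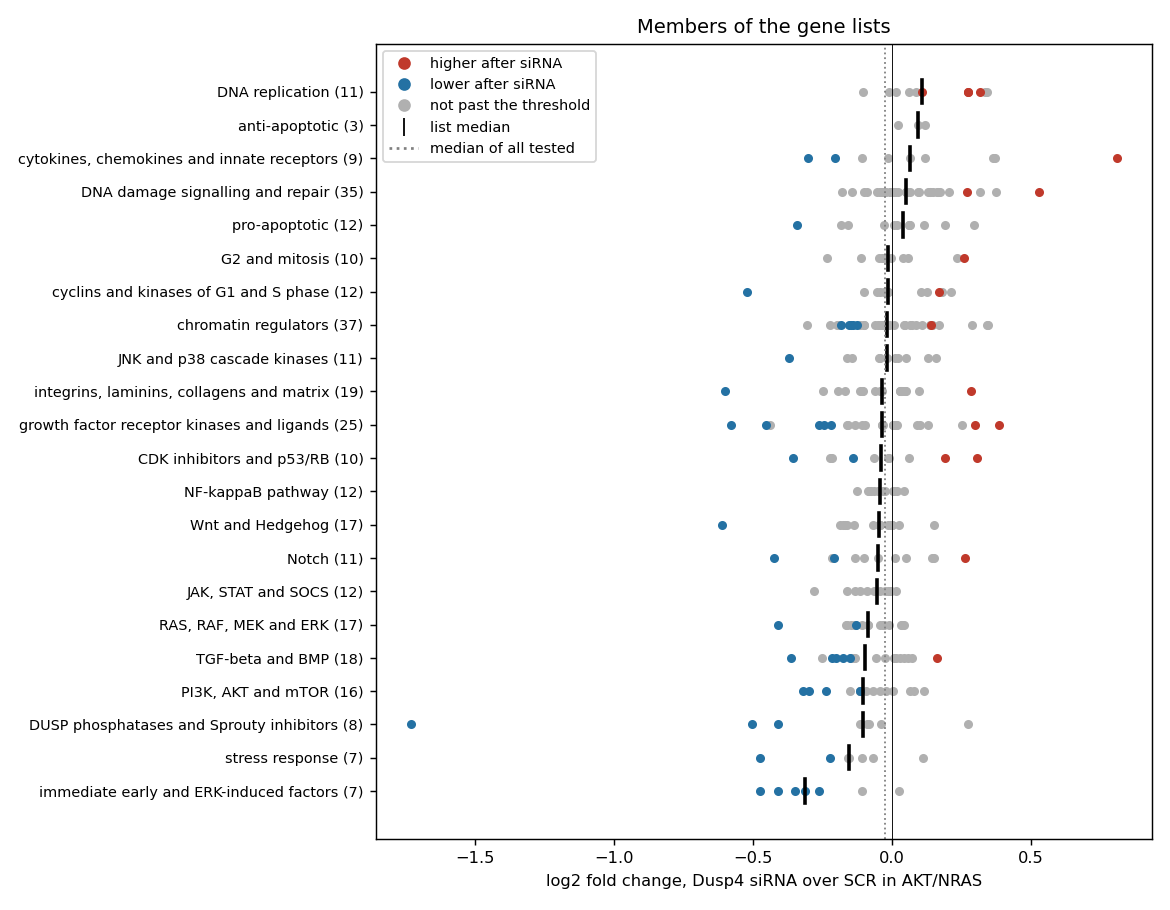
Log2 fold change of *Dusp4* siRNA over SCR in AKT/NRAS cells (x axis) for every tested member of the 22 pathway lists (rows, with the number tested). Red points rose, blue points fell, grey points did not pass, black bars are list medians and the dotted line is the median of all tested genes, -0.03. Immediate early factors lie lowest and DNA replication highest, and with the values as deposited all points move to the right by about 0.3.

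The comparison with AKT Cre/NRAS asked whether the response depends on the presence of AKT. *Dusp4* was silenced less in that line, where it was counted at 4126, 4174 and 3769 normalized counts with siRNA and at 6343, 5843 and 4483 with SCR. The log2 fold changes of -1.73 in AKT/NRAS and -0.45 in AKT Cre/NRAS differed by -1.28 (interaction in limma, adjusted p = 0.000728), and by -0.85 as deposited (adjusted p = 0.0741). The unequal silencing and the presence of AKT cannot be told apart in what follows. The interaction passed for 238 of 525 genes (45.3%), of which 213 had the lower response in AKT/NRAS, and for 59 of the 86 genes called in AKT/NRAS. Of these, 9 of the 238 and 5 of the 59 were at the common floor in all samples of 1 line, so that their difference is the change in the other line alone. The direction turned with the scaling: after centring on the median gene 68 passed with the lower and 130 with the higher response in AKT/NRAS, after quantile normalization 101 and 90, and as deposited 2 and 30. The median interaction over all genes was -0.25. The AKT Cre/NRAS SCR samples differed among themselves by 17.2 to 80.4 times the variance of counting noise (chi-square per degree of freedom). The log2 ratio of the reference genes *Rpl19* and *Polr2a* was 5.48, 6.36 and 6.88 in those 3 samples. It was 4.72, 4.92 and 5.03 with siRNA in that line and 3.81 to 3.92 in the 6 AKT/NRAS samples. The part of this difference in the AKT Cre/NRAS responses and in the interactions was not tested.

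*Dusp5*, *Fosl1*, *Klf4* and *Dusp10* had opposite signs in the lines, except that *Klf4* was above 0 in AKT/NRAS with the values as deposited and that *Dusp10* was just below 0 in AKT Cre/NRAS after centring on the median gene and after quantile normalization (-0.017 and -0.013). The median log2 fold change over all genes tested in AKT Cre/NRAS was 0.23, and values above 0 there are read against it. *Dusp10*, at 0.22 in that line, lay just under this median. *Dusp5* was at 0.67 in AKT Cre/NRAS against -0.50 in AKT/NRAS (interaction -1.17, adjusted p = 0.00158), with 548, 492 and 442 normalized counts with siRNA and 343, 304 and 283 with SCR in AKT Cre/NRAS. *Fosl1* was at 0.53 against -0.41 (interaction -0.94, adjusted p = 0.00158), *Klf4* at 0.46 against -0.31 (-0.77, 0.00158) and *Dusp10* at 0.22 against -0.41 (-0.63, 0.000728). These 4 interactions kept their sign as deposited but did not pass there (adjusted p = 0.129, 0.375, 0.582 and 0.745). After centring each sample on its median gene all 4 passed, at -0.84, -0.61, -0.44 and -0.31. *Runx1*, *Smad3*, *Ep300* and *Whsc1* likewise fell in AKT/NRAS and were above 0 in AKT Cre/NRAS, at 0.57, 0.71, 0.70 and 0.37, although as deposited *Smad3*, *Ep300* and *Whsc1* were above 0 in AKT/NRAS as well. *Cacna1g*, *Rasa4*, *Efna2*, *Il15* and *Cdkn2a* were not measured above the common floor in the AKT Cre/NRAS fit, so their response there has no value. *Ddit3* was below 0 in both lines, at -0.49 in AKT Cre/NRAS against -0.48, with an interaction of 0.015 that did not pass (adjusted p = 0.943). That difference ranged with the scaling from -0.47 with 5 reference genes to 0.44 as deposited, and passed under none of the scalings.

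**Figure D5:**
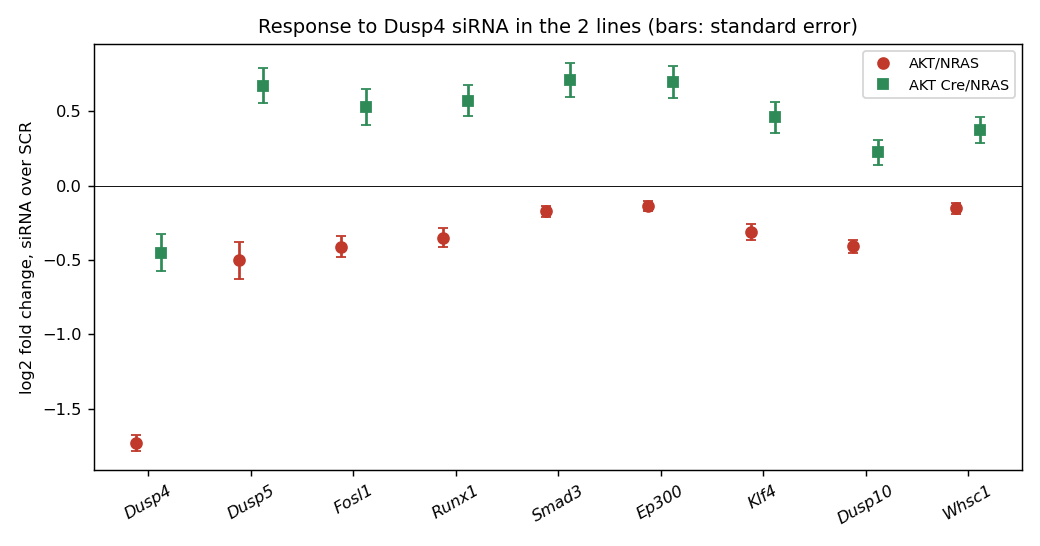
Log2 fold change of *Dusp4* siRNA over SCR with its standard error (y axis) in AKT/NRAS (red circles) and AKT Cre/NRAS (green squares) for the genes with a value in both lines among the 10 called in AKT/NRAS with the smallest interaction p. *Dusp4* is below 0 in both lines, although with 5 reference genes it was level in AKT Cre/NRAS at 0.00098, and the other 8 genes lie on opposite sides of 0. The median over all genes tested in AKT Cre/NRAS was 0.23. After centring on the median gene and after quantile normalization *Dusp10* was below 0 in both lines. As deposited *Klf4*, *Smad3*, *Ep300* and *Whsc1* were above 0 in AKT/NRAS too, and none of the 9 interactions passed.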

How the data were processed

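Total RNA (100 ng) from 3 biological replicates per group was hybridized to the Mouse PanCancer Pathways panel, and the authors processed the scans in nSolver. Each deposited value is a signal, found from the numbers to be a probe's barcode count multiplied by its sample's positive control factor, and anything lower than 20 was lifted to 20. All values above 20 came out as whole counts (100%), which gave the depths. The authors' reference gene step is named in the methods but is not in these values. Since counts at the floor are unknown, no count model was fitted.

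Values were scaled to 15 of the panel's 20 reference genes (geNorm over all 12 samples), raised to a common floor of 27.1 and log2 transformed after adding 1. Genes above this floor in at least 1 sample were tested on the 6 AKT/NRAS samples in R 4.3.3 by limma 3.58.1 (eBayes, trend on intensity), with Benjamini-Hochberg adjustment at 0.05. Fold changes on this scale understate the change of genes near the floor. The interaction used all 12 samples. *Oaz1* was the only kept reference gene that passed. The code was tested on simulated data.

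The members, the 22 pathway and 5 marker lists and the tests were chosen with earlier results of these data known. The text names *Dusp4*, genes the study names, the 15 largest rises and falls, up to 4 members of each list with the smallest p, all DUSP and Sprouty genes and 10 genes by interaction p, and other names were chosen after their values were seen. Some genes that the rule picks are not reported here. Lists carry no test. Alternatives were other scalings, filters, adjustments, fits and left-out samples. Figures were drawn with matplotlib 3.10.9.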

Additional observations from a re-analysis of the deposited data

Results flagged for a closer look

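For 9 genes called in AKT/NRAS, the response to *Dusp4* siRNA differed between AKT/NRAS and AKT Cre/NRAS by the interaction in limma over all 12 samples, given here as AKT/NRAS minus AKT Cre/NRAS on the log2 scale. The difference was -1.28 for *Dusp4* (adjusted p = 0.000728), -1.17 for *Dusp5* (0.00158) and -0.63 for *Dusp10* (0.000728). Among transcription factors and coactivators it was -0.94 for *Fosl1* (0.00158), -0.92 for *Runx1* (0.000728), -0.88 for *Smad3* (0.00148), -0.83 for *Ep300* (0.00148) and -0.77 for *Klf4* (0.00158). It was -0.53 for *Whsc1* (0.00128). *Cacna1g* was at the common floor in all 6 AKT Cre/NRAS samples and is left out. As deposited none of the 9 passed (adjusted p = 0.0741 to 0.894), and *Whsc1* also missed the threshold after centring on the median gene (0.0535) and after quantile normalization (0.0819). Each of the 9 is read against a median interaction of -0.25 over all genes, and *Dusp4* itself was silenced to different degrees in the lines. The AKT Cre/NRAS SCR samples also stood apart in the log2 ratio of *Rpl19* to *Polr2a*, at 5.48, 6.36 and 6.88 against 4.72 to 5.03 with siRNA there.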

How the results depend on the processing

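With the values as deposited 287 genes rose and 3 fell, after centring on the median gene 55 rose and 44 fell, and after quantile normalization 47 rose and 42 fell. With all genes kept regardless of level the counts were 11 and 34, with Benjamini-Yekutieli adjustment 1 and 9, without limma's pooling of variances 5 and 21, and with 1 fit over all 4 groups 4 and 15. Leaving out 1 sample gave 6 to 28 rises and 32 to 64 falls. *Dusp4* passed under every setting. The reference genes without *Oaz1*, an alternative chosen after seeing the data, gave 32 and 53. The interaction passed for 32 genes as deposited, 2 of them below 0, for 153 with reference genes chosen within the line and 101 with Benjamini-Yekutieli adjustment, against 238, and for 176 to 307 with 1 sample left out. The *Dusp4* interaction was -0.85 as deposited and missed the threshold.

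As deposited 36 of the genes reported here that were called in either setting changed sign, all from below to above 0, and the cause was not tested beyond the shift of the median gene. Their values were 0.31 for *Cdk6*, 0.29 for *Mapk9*, 0.081 for *Prkca*, 0.22 for *Akt1*, 0.32 for *Cdkn2a*, 0.075 for *Ets2*, 0.023 for *Klf4*, 0.038 for *Pik3r1* and 0.099 for *Eif4ebp1*. They were 0.20 for *Cdkn1b*, 0.11 for *Gadd45a*, 0.26 for *Rela*, 0.25 for *Nfkbia*, 0.13 for *Tlr4*, 0.028 for *Il15*, 0.19 for *Tgfbr1*, 0.12 for *Smad4* and 0.16 for *Smad3*. They were 0.13 for *Dtx4*, 0.12 for *Vegfa*, 0.074 for *Efna1*, 0.091 for *Pdgfa*, 0.15 for *Smarca4*, 0.18 for *Hdac5*, 0.20 for *Ep300*, 0.21 for *Ezh2* and 0.18 for *Whsc1*. They were 0.025 for *Cacna2d1*, 0.079 for *Cic*, 0.12 for *Gng12*, 0.13 for *Tgfb1*, 0.14 for *Ptk2*, 0.16 for *Ifnar2*, 0.19 for *Ncor1*, 0.20 for *Capn2* and 0.24 for *Gnas*. *Gnas* also turned to 0.019 after quantile normalization, which left *Eef1g* at 0. Under the other settings run none of the called genes reported here changed sign.

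With the replicate number as a block 22 genes rose and 51 fell, 68 of the 86 genes passed and the interaction passed for 244. Deviations of same-numbered samples correlated at -0.07, 0.04 and -0.06. With 3 samples a group these values cannot decide whether the numbers pair the samples. The number of samples, 3 a group, and the floor limit what could be seen for genes near 27.1 normalized counts.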

Other observations

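Other genes that passed in AKT/NRAS and were not described above were chosen here after their values were seen. *Cic*, a repressor of ERK target genes that ERK inactivates, fell by 0.26 (adjusted p = 0.019), with 507, 577 and 539 normalized counts with *Dusp4* siRNA against 659, 635 and 642 with SCR, and turned to 0.079 as deposited. *Tgfb1* fell by 0.20 and the receptor *Tgfbr2* rose by 0.16, each in 1 of 6 fits with a sample left out. *Tfdp1*, the partner of E2F factors, and *Rbx1*, a subunit of the cullin ligases that act with SKP2, rose by 0.24 and 0.25 under all 8 scalings (adjusted p = 0.0143 and 0.0168).

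Of the G protein and adhesion signalling genes, *Gng12* fell by 0.22, *Ptk2*, which encodes focal adhesion kinase, by 0.20 and *Gnas* by 0.095, while *Gna11* rose by 0.17. As deposited the first 3 stood at 0.12, 0.14 and 0.24. The translation factor *Eef1g*, a reference gene that was not kept, rose by 0.16 whichever sample was left out (adjusted p = 0.00916), and had no change after quantile normalization.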
